A study of Homo sapiens with 3 samples.

Results

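Olfactory receptor genes were followed here through the H3K9me3 regions of Jurkat cells, an established line from a human T cell leukaemia. Cells were starved of serum for 90 min and then either left untreated (control) or given the chemokine CXCL12 (SDF), at 100 ng/ml for 15 min. Fixation used 1% formaldehyde for 15 min, and each precipitation took 30 µg of chromatin and an antibody to histone H3 trimethylated at lysine 9. Each group had 1 library, which leaves every difference without a replicate check or a p-value, and the input library was not analysed here. A region counted as an olfactory receptor region when its deposited gene list held a symbol of the olfactory receptor form (OR, a family number, subfamily letters and a member number). This gave 176 of 54116 regions (0.325%), with 79 among 26938 in control and 97 among 27178 after CXCL12, and they named 85 receptor genes. None of these symbols was a pseudogene symbol. The deposited lists name genes in a region and genes beside it, with the edges of upstream regions at most 9905 bp from the receptor's start, so "with a region" means in or beside the gene.

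Olfactory receptors are G protein-coupled receptors that detect odorants in the sensory neurons of the nose. Their genes are small, intronless over the coding part and arranged in tandem clusters on many chromosomes. Class I receptors resemble those of fish, and class II receptors make up the bulk of the mammalian repertoire. In mouse, most receptor genes of an olfactory neuron lie in H3K9me3 heterochromatin and a single allele escapes it, under the homeodomain factor Lhx2 and the Ebf factors. The assay measures the histone mark and not expression.

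The mark touched a minority of the receptor genes. Of 390 protein-coding olfactory receptor genes in RefSeq, 85 had a region in either library (21.8%, exact 95% interval 17.8 to 26.2), where 30.0% of all protein-coding genes did. Receptor genes are short and any region in or beside a gene counts, but gene length was not matched in that comparison. Intervals on shares cover counting error over genes, regions or loci in these libraries only. Class I genes (families 51 to 56) had a region in 7 of 55 cases, or 12.7% (5.27 to 24.5). Class II genes had one in 78 of 335, or 23.3% (18.9 to 28.2), and the intervals overlap. Family OR10 had the highest share among families of at least 7 genes, with 17 of 35 (48.6%), while the small class I family OR56 had 3 of 7 and OR1 had 11 of 27. OR2, the largest family, had 8 of 68, OR4 had 7 of 50 and OR51, a class I family, had 0 of 23.

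The share also varied by chromosome. On chromosome 11, which holds the largest number of receptor genes, 30 of 171 had a region. Chromosome 1 had 18 of 61, chromosome 9 had 9 of 25, chromosome 17 had 6 of 13 and chromosome 19 had 9 of 20. Few genes of chromosomes 6 and 14 had a region, with OR2B6 alone among 17 genes and OR4K15 and OR5AU1 among 24. Their intervals (0.15 to 28.7% and 1.03 to 27.0%) include the 21.8% of all receptor genes. Within family OR10 it differed by chromosome: all 8 genes of chromosome 1 and 4 of 5 on chromosome 19 had a region, but 3 of 16 on chromosome 11.

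**Figure D1:**
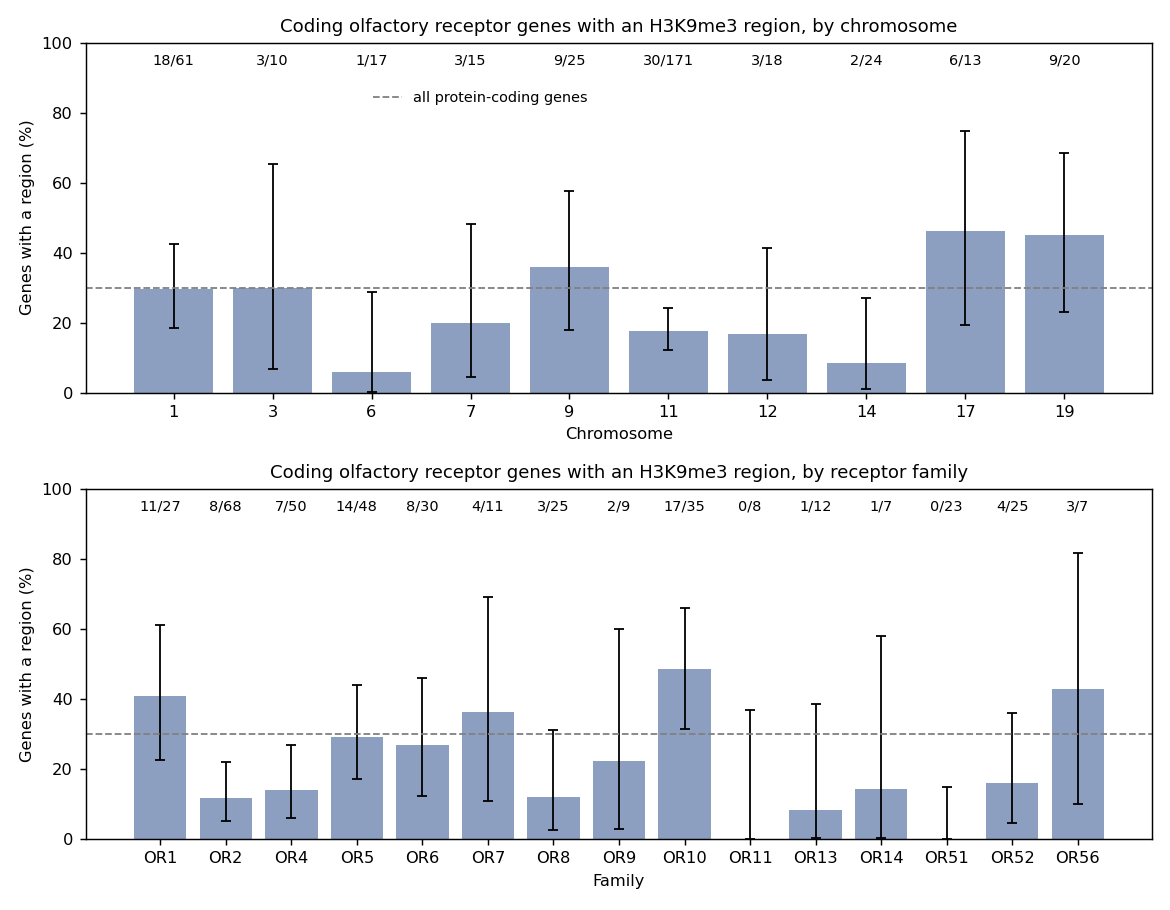
Share of protein-coding olfactory receptor genes with an H3K9me3 region in either library (percent, bars) by chromosome and by family, for groups of at least 7 genes; error bars are exact 95% binomial intervals, the numbers are genes with a region of all genes, and the dashed line is the share over all protein-coding genes (30.0%). OR10 reaches 48.6% and chromosomes 6 and 14 hold 1 and 2 genes with a region. The dashed line is not matched for gene length.

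Regions at receptor genes were close to all regions of the series in size and strength. At the median a control region measured 3800 bp and a CXCL12 region 4000 bp, against 4000 and 4200 bp over all regions. The deposited signal is a value per bin, and its mean over the bins of a region had a median of 4.85 in control and 5.04 after CXCL12, against 5.06 and 5.10 over all regions. None of the 176 regions reached 20 kb, a length that 502 control and 550 CXCL12 regions of the series did. The longest were a control region of 15000 bp at OR10R2 and a CXCL12 region of 17400 bp at OR10K2.

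The mark lay more often beside these genes than on them. The deposited position follows the highest bin of a region, and by that position 28 of 199 gene entries (14.1%) were in the receptor gene, 62 (31.2%) upstream and 109 (54.8%) downstream. Over all gene entries of the series 65.1% were in the gene; receptor genes are short, and gene length was not matched in that comparison. A promoter, which the deposited counts place from 7.5 kb before to 2.5 kb after a start, was hit by 46.8% of receptor regions in control and 48.5% after CXCL12, against 18.3% and 17.99% of all gene-carrying regions. Gene length was not matched there either. A CpG island lay in 2 of 79 control and 4 of 97 CXCL12 receptor regions (2.53%, 0.31 to 8.85, and 4.12%, 1.13 to 10.2), against 7.19% and 6.86% of all gene-carrying regions, which the intervals include.

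The starts of 83 receptor genes could be derived in hg19 from the deposited highest bin and its distance to the start. A region covered the start of 12 of them in control (14.5%) and 15 after CXCL12 (18.1%), and of 10 in both. Over all 4403 genes with a region and a RefSeq strand, the start was covered for 9.79% in control and 9.56% after CXCL12. Gene length was again not matched, and only regions that list the gene counted over all genes, where any region counted for receptors. The 10 receptors covered in both libraries were OR10A5, OR10H3, OR10H4, OR10K1, OR10K2, OR10R2, OR1B1, OR1L4, OR2Z1 and OR6Y1, of which 6 belong to family OR10. OR10Z1 and OR1D2 were covered in control only, and the nearest CXCL12 region lay 171 and 91 bp from the start. OR10A3, OR10H1, OR4A5, OR6P1 and OR7E24 were covered after CXCL12 only. The nearest control region lay 2533, 32137, 3649, 195 and 1721 bp from their starts, in that order. The median distance from a receptor's start to the nearest region was 6.15 kb in control and 5.10 kb after CXCL12. These medians depend on how the genes were chosen, as 17 were listed after CXCL12 only and 5 in control only. No value over all genes is given, so they are not read as a difference between the libraries.

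For 3 of these 10 genes, RefSeq (GRCh38.p14) holds a promoter window whose start begins with an ATG, and these windows are shown because the mark covered the start itself in both libraries. Each runs from 250 bases before the start to 50 bases from it, 5′ to 3′ on the plus strand, and the capitals mark the first 3 bases at the start. They were matched by symbol, and no coordinate was converted: the spacing of starts to other receptors of the same chromosome was equal in both builds for OR10R2 (4 other genes) and OR1L4 (2 other genes), and differed by 1 base for OR10A5. The windows lie at chr11:6845433-6845732 for OR10A5, chr1:158479628-158479927 for OR10R2 and chr9:122723740-122724039 for OR1L4. A start at an ATG may be that of translation rather than of transcription, which was not tested.
OR10A5: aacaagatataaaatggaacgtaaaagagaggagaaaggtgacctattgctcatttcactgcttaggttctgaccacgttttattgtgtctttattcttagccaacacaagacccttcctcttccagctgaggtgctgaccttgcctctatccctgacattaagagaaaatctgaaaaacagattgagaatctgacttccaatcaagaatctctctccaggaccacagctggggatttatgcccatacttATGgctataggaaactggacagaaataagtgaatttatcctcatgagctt
OR10R2: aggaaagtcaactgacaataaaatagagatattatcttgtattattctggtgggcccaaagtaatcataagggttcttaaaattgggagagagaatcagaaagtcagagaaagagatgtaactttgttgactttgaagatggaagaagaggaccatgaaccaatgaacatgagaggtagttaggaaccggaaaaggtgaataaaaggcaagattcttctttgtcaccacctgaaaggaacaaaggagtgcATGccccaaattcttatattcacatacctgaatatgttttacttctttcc
OR1L4: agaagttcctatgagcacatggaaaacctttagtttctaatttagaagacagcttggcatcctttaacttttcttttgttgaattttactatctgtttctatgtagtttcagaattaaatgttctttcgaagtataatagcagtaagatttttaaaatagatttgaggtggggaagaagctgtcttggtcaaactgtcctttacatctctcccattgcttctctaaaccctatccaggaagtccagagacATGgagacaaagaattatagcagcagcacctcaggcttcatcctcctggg

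In hg19 the OR10R2 start (chromosome 1, 158449668) lay 1468 bp inside its control region and 3268 bp inside its CXCL12 region, so all 250 bases before the start were covered in both. At OR10A5 (chromosome 11, 6866914) the regions began 314 and 1314 bp before the start. At OR1L4 (chromosome 9, 125486269) the control region began 69 bp before the start and the CXCL12 region 269 bp before it. The control region as called thus held only part of the window, though 69 bp is below the 200 bp step of region starts. Averaged over the whole region that covers the start, the signal was 4.85 (control) and 5.67 (CXCL12) at OR10R2. It was 4.59 and 3.27 at OR10A5 and 7.10 and 8.15 at OR1L4. These are not values at the start itself, as the control regions of OR10R2 and OR1L4 span 15000 and 13600 bp.

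The windows of receptor genes were poor in G and C, with a median of 39.3% over 73 windows of genes with a region, 37.3% over 251 windows of receptor genes without one and 58.7% over all 35116 windows. The letters TAATTA, the core of the homeodomain motif and the same on both strands, were counted in these windows. They occurred in 12.3% of windows of receptors with a region (9 of 73), in 25.1% of those without (63 of 251) and in 4.84% of all windows. The letters CCCNNGGG, from the motif of the Ebf factors and also the same on both strands, occurred in 6.85%, 8.37% and 19.1%. None of the 3 windows printed holds either. RefSeq windows were found for 70 of the 85 genes. Whether a window is set on the start of transcription or of translation was not matched between receptor genes and all windows. Base content was not matched between the sets either, and TAATTA consists of A and T alone.

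The strongest mark over any receptor lay on the OR10H cluster of chromosome 19. At OR10H4 (16058200 to 16062399) the control library had a mean signal of 17.1 and the CXCL12 library 14.7, higher than 99.5% and 99.0% of all regions of each library. At OR10H3 (15850400 to 15855199) it was 12.7 in control and 15.0 after CXCL12. The libraries thus ranked these 2 genes in opposite order, while the highest bin was larger after CXCL12 at both, with 49 and 62 at OR10H4 and 57 and 63 at OR10H3. Both regions covered the start of the gene. Reads at such closely related neighbours may be shared between copies in the alignment, which the sources used here do not describe.

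Below these, 9 further loci made up the 8 highest signals of either library. OR10Z1 of chromosome 1 had 8.88 in control and 9.21 after CXCL12, and its neighbour OR10X1 had 7.42 and 8.35. OR2M7, on the distal long arm of the same chromosome, had 8.26 and 9.41, and OR2B6 had 8.66 and 8.99. The signal was lower after CXCL12 at OR6V1, with 8.54 and 6.82, at the locus of OR10A3 and OR10A6, with 8.43 and 6.81, and at OR5AK2, with 8.31 and 7.85. OR2Z1 had 6.73 and 8.15, and OR1L4 had the values given for the region that covers its start. Neither library was above the other throughout these loci. The strongest loci of the remaining larger groups were OR5K3 on chromosome 3 with 6.26 and 5.88, OR1G1 on chromosome 17 with 6.37 and 5.16, OR5B3 with 7.18 and 5.11 and OR4A5 with 4.58 and 5.40, the last pair on chromosome 11. OR56A3, a class I receptor with a region among the longest, had 7.54 and 7.48.

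Regions of either library that overlapped by at least 1 bp were chained into loci, and the 176 regions formed 99 of the 29404 loci of the series. Regions of both libraries were present at 74 of them (74.7%, 65.0 to 82.9), against 73.3% of all loci. At these shared loci the mean signal differed little between the libraries. Expressed as log2 of CXCL12 over control, its ratio had a median of 0.03 (−0.04 to 0.07, order-statistic 95% interval over loci), with an SD of 0.26 over loci, against a median of 0.04 and an SD of 0.27 over all 21541 shared loci. It was above 0 at 41 loci and below 0 at 33, and it changed sign, to −0.0069, once ratios were centred on all shared loci. No receptor locus was 2-fold higher after CXCL12, where 0.116% of all shared loci were, and none was 2-fold lower, where 0.176% were. By the highest bin both counts were again 0, against 0.696% higher and 0.279% lower over all shared loci. At 22 of the 74 loci the mean and the highest bin moved in opposite directions, a share of 29.7% against 30.9% of all shared loci.

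**Figure D2:**
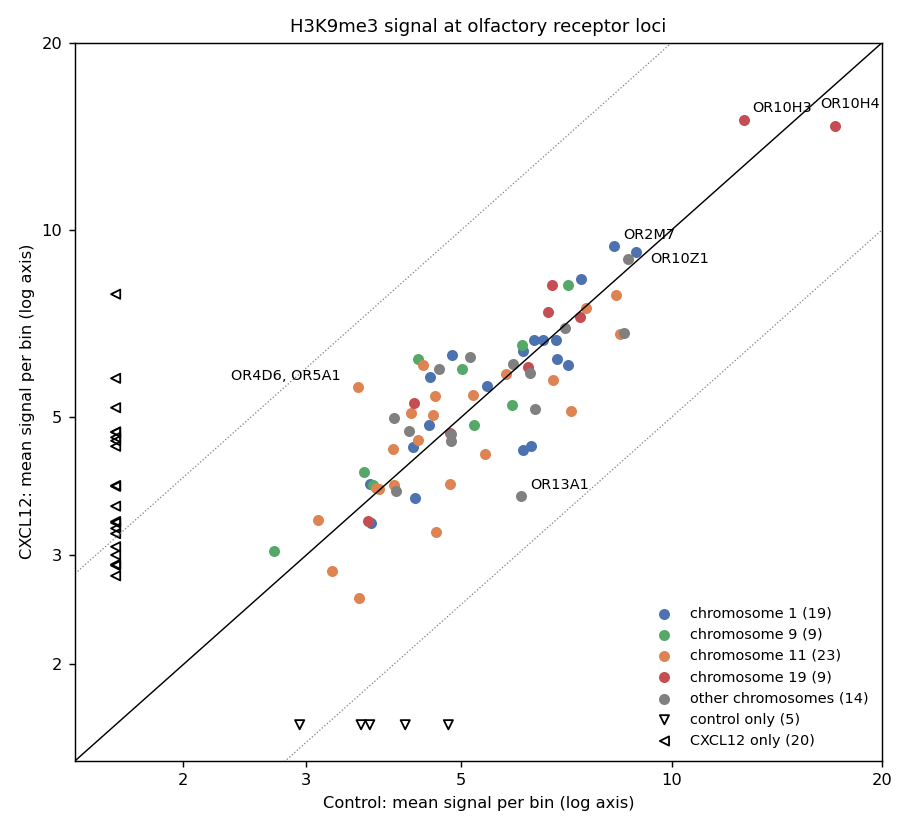
Mean H3K9me3 signal per bin in control (x) and after CXCL12 (y), log axes, for the 74 shared olfactory receptor loci (filled points, coloured by chromosome); open triangles at the margins are the 5 control-only and 20 CXCL12-only loci, the solid line is equality and the dotted lines mark 2-fold. All shared loci lie between the dotted lines, and OR10H3 and OR10H4 lie apart from the rest on opposite sides of equality.

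The widest ratios went with changes in the called length. OR4D6 and OR5A1 on chromosome 11 share the locus with the highest ratio, 3.55 in control and 5.59 after CXCL12 (log2 0.65), which spanned 4400 bp in control but 1800 bp after CXCL12. OR13A1 on chromosome 10 had the lowest, 6.08 and 3.73 (log2 −0.70), with lengths of 800 and 2800 bp. These were the only loci past 1.5-fold, 1 higher and 1 lower, where 2.28% and 1.92% of all shared loci were past it. After OR4D6 the higher ratios were those of OR1B1 and OR1Q1 (4.34 and 6.19, log2 0.51), OR4C16 (4.41 and 6.06, log2 0.46), OR10R2 (log2 0.38), OR4D1 (4.65 and 5.98, log2 0.36) and OR2T1 (4.52 and 5.80, log2 0.36). The lower ones after OR13A1 were those of OR10A5 and OR5B3 (log2 −0.49 each), OR2L13 (6.29 and 4.49, log2 −0.49), OR5P3 (3.57 and 2.56, log2 −0.48) and OR2C3 (6.12 and 4.42, log2 −0.47). Among the 6 highest ratios 5 loci were shorter after CXCL12, and among the 6 lowest 5 were longer. Over the 74 loci Spearman's rho between the ratio of mean signal and the ratio of length was −0.59, as a description across loci that share both libraries, and it was −0.62 over all shared loci. By summed signal, which counts length as well, 3 loci were 2-fold higher and 1 was 2-fold lower, where 2.84% and 0.998% of all shared loci were.

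**Figure D3:**
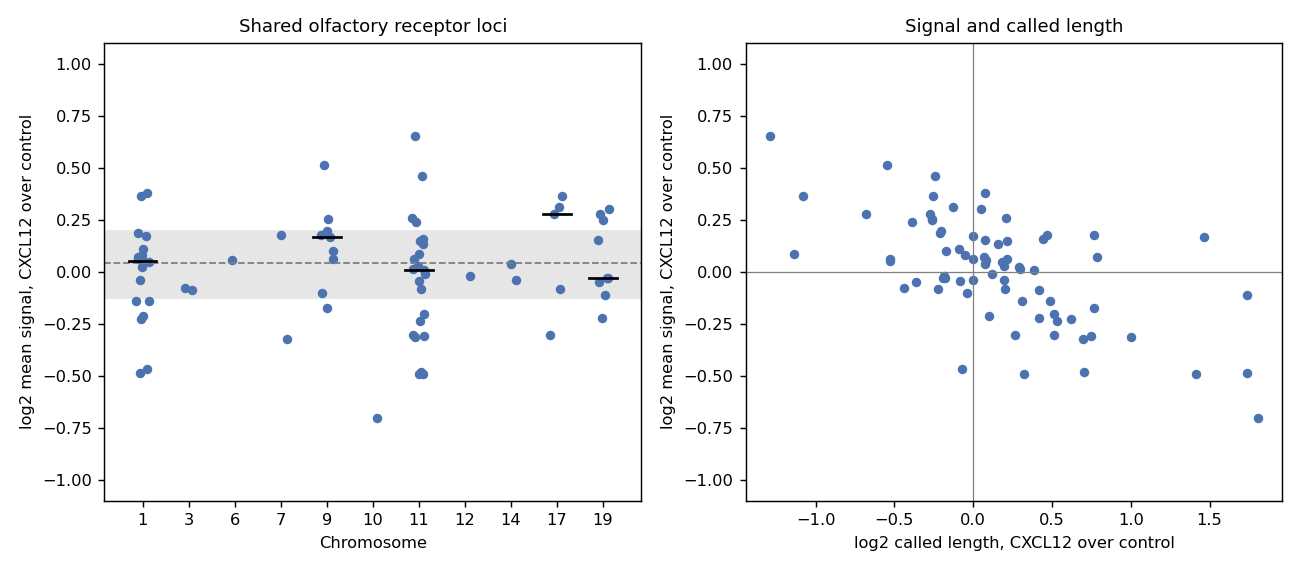
Log2 ratio of mean signal, CXCL12 over control, for the 74 shared olfactory receptor loci, by chromosome (left; short bars are medians where a chromosome has over 2 loci, the band and dashed line are the quartiles and median of all shared loci) and against the log2 ratio of called length (right). Ratios run from −0.70 at OR13A1 to 0.65 at OR4D6 and OR5A1 and fall as called length increases.

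At these loci more DNA was called after CXCL12 than in control. Regions that list a receptor covered 371 kb in control and 452 kb after CXCL12, or 21.8% more, where all regions of the series covered 6.94% more. Part of that excess reflects which regions list a receptor: with every region of the same loci counted, listed or not, the lengths were 392.4 and 454.4 kb, or 15.8% more. A locus was called after CXCL12 only in 20 of 99 cases (20.2%, 12.8 to 29.5), against 14.6% of all loci, and in control only in 5 cases (5.05%, 1.66 to 11.4), against 12.2%. By gene, 63 receptors had regions in both libraries, 17 after CXCL12 only and 5 in control only. No such tally over all genes is given here, so these counts cannot be read as particular to receptors. The tally also follows listing, as OR4D6 among the control-only genes and OR10A6 and OR5B2 among the CXCL12-only genes lie at shared loci. Chromosome 1 held 10 of the 20 CXCL12-only loci and no control-only locus among its 29 receptor loci. There the CXCL12-only share was 34.5% (17.9 to 54.3), against 14.1% of all loci of chromosome 1. Outside chromosome 1 it was 14.3%, or 10 of 70 loci, against 14.6% of all loci, and the length of listed regions was 260.6 kb in control and 301.4 kb after CXCL12, 15.7% more.

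Loci called in a single library had lower medians of signal and length than the shared ones, which had median signals of 5.17 (control) and 5.41 (CXCL12) and median lengths of 4100 and 4300 bp. The 20 CXCL12-only loci had a median mean signal of 3.73 (lowest 2.78, highest 7.88) and a median length of 2300 bp, close to the 3.86 and 2600 bp of all CXCL12-only loci, and 3 of them reached the median signal of their library. These 3 were OR10J1 with 7.88 over 800 bp and a pair at OR14I1 with 5.77 and 5.18, all on chromosome 1. The next highest were OR5J2 and OR6C4 with 4.73 each, OR10J5 with 4.64, the locus of OR2L13 and OR2L2 with 4.58 and that of OR6N1 and OR6N2 with 4.49. A control region lay within 5 kb of 5 of the 20 and within 10 kb of 8, and the median distance was 21.1 kb. The 5 control-only loci were those of OR5H6 (4.79), OR52K2 (4.16), OR6Q1 (3.70), OR7A5 (3.59) and OR9A2 (2.93), and none reached the median signal of its library. OR52K2 also had a shared locus, and its control-only region lay 3 kb from a CXCL12 region, whereas that of OR6Q1 lay 356.6 kb from any. The read depth behind these calls is unknown, and its part in the counts was not tested.

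Receptor loci with gaps of at most 1 Mb formed 24 groups on 11 chromosomes, and 11 groups of at least 3 loci held 81 of the 99. The group at chromosome 1, 158351600 to 159509199, was the largest, with 18 loci, 12 genes and 85.4 kb of listed regions in control against 107 kb after CXCL12. All regions in its span, listed or not, covered 191.4 and 220.2 kb. The group of the distal long arm, chromosome 1, 247676000 to 248857399, had 25 kb listed in control and 43.6 kb after CXCL12 (36.6 and 53 kb by all regions), with 6 shared and 5 CXCL12-only loci at OR2C3, OR2L13, OR2L2, OR2M7, OR2T1 and OR14I1. On chromosome 11, the group from 5873000 to 7968599 mixed class I genes (OR52 and OR56 families) with class II genes and had 30 kb listed in control and 45.8 kb after CXCL12, but 70.4 and 75 kb by all regions. The groups on chromosome 9 (125321200 to 125522599) and chromosome 17 (2989600 to 3316999) had no locus called in a single library, with 39.4 and 39.2 kb on chromosome 9 and 24 and 23.2 kb on chromosome 17. By all regions, these spans held 51 and 53.6 kb on chromosome 9 and 47.8 and 48.6 kb on chromosome 17. The direction turned at OR52K2 on chromosome 11, with 3.8 kb listed in control and 7.2 kb after CXCL12 but 10 and 7.2 kb by all regions.

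**Figure D4:**
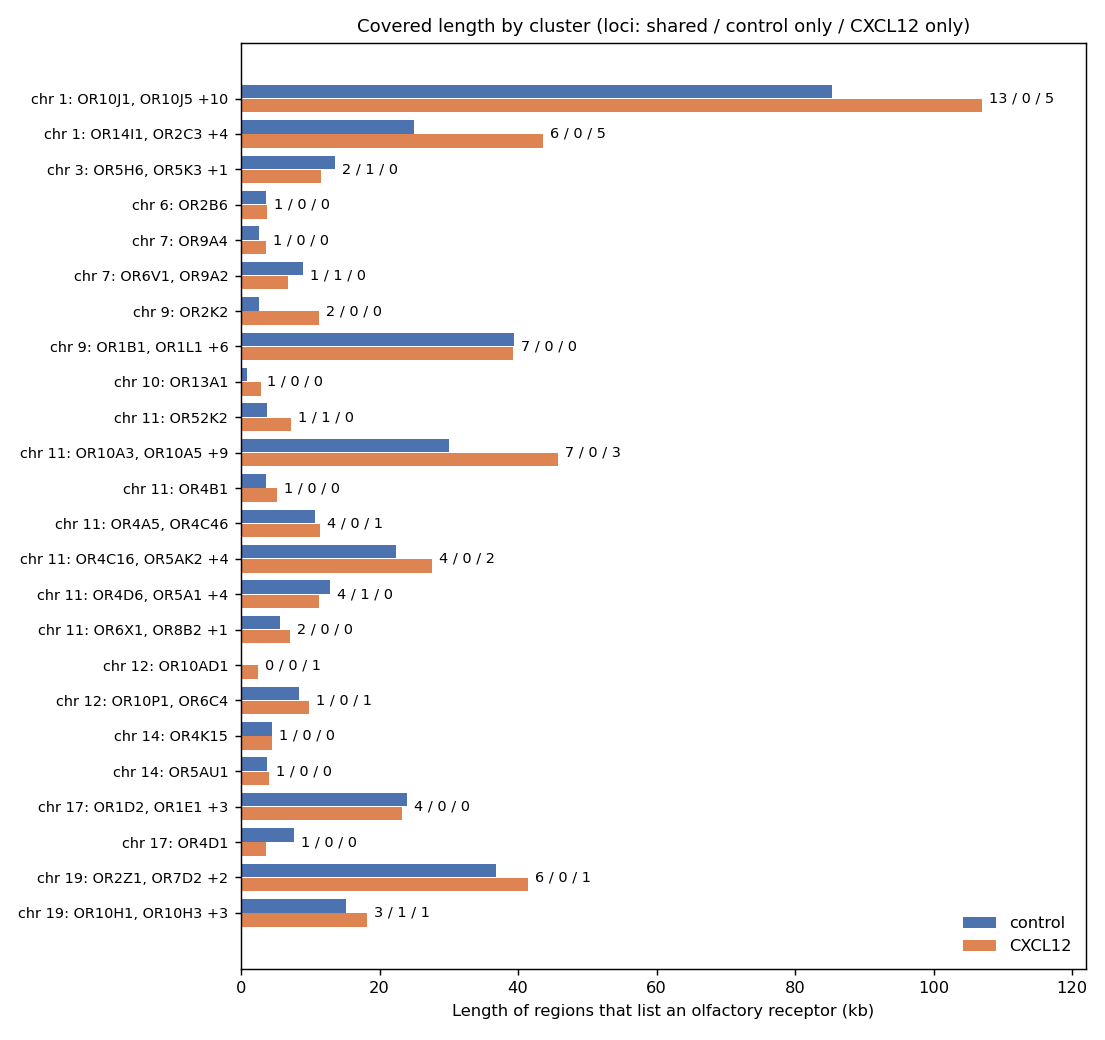
Summed length (kb) of regions that list an olfactory receptor in the 24 groups of neighbouring loci, in control (blue) and after CXCL12 (orange), with the counts of shared, control-only and CXCL12-only loci beside each pair of bars. The first group of chromosome 1 has 85.4 and 107 kb, and the chromosome 9 group of OR1 genes has 39.4 and 39.2 kb.

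In RefSeq gene order, the longest unbroken runs of neighbouring coding genes with a region held 8 receptors each. On chromosome 1 the run consisted of OR10T2, OR10K2, OR10K1, OR10R2, OR6Y1, OR6P1, OR10X1 and OR10Z1. From 158351600 to 158580199, a span of 228.6 kb, regions covered 54.0% in control and 58.6% after CXCL12, at a mean signal of 5.63 and 5.86. Of its 15 loci 13 were shared and 2 were CXCL12 only, and the median log2 ratio of the shared ones was 0.05 (lowest −0.23, highest 0.38). The highest ratio was at OR10R2, where a single control region of 15000 bp with a mean of 4.85 lay opposite shorter CXCL12 regions with a joint mean of 6.30 over 15800 bp. At the other named loci of the run the signal was 4.50 in control and 4.85 after CXCL12 at OR10T2, 5.44 and 5.62 over the OR10K2 start, 6.34 and 6.66 beside that gene, 6.83 and 6.65 at OR10K1 and 7.09 and 6.05 at OR6Y1. The mark followed no single position in the run: regions covered the starts of OR10K2, OR10K1, OR10R2 and OR6Y1 in both libraries, whereas at OR10X1 the nearest region lay 3511 bp from the start in control and 2511 bp after CXCL12, and at OR10T2 3457 and 5057 bp. The run on chromosome 9 held OR1L8, OR1N2, OR1Q1, OR1B1, OR1L1, OR1L3, OR1L4 and OR1L6, all of family OR1, and its group had mean signals of 5.82 and 6.18 in control and CXCL12. Over the OR1B1 start the locus had 5.21 and 4.85. Most of the 48 runs were short, 29 being a single gene.

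**Figure D5:**
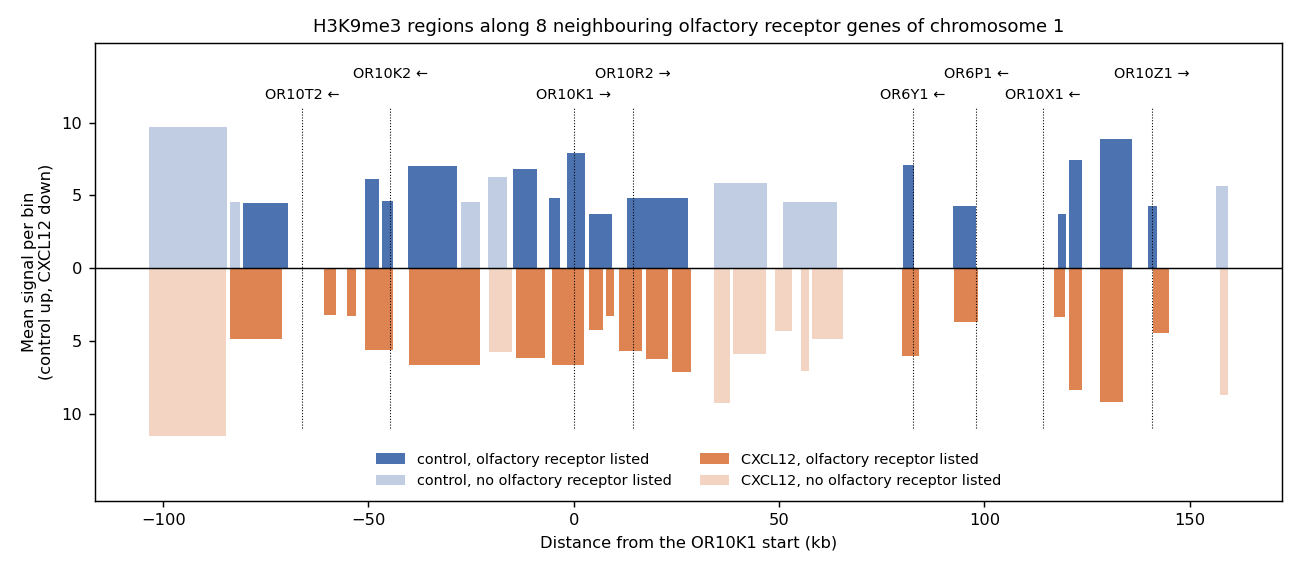
H3K9me3 regions along the run of 8 neighbouring olfactory receptor genes on chromosome 1, as distance from the OR10K1 start (kb); bar width is the region and bar height its mean signal per bin, control upward and CXCL12 downward, pale where no olfactory receptor is listed, and dotted lines mark gene starts with the direction of transcription. Regions of both libraries alternate with gaps across the 228.6 kb, and the control region at OR10R2 is split into shorter regions after CXCL12.

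Other genes of odour detection were looked up from a list chosen with earlier results known. Of 21 genes of olfactory signal transduction and receptor trafficking 9 had a region (42.9%, 21.8 to 66.0), an interval that includes the 30.0% of all protein-coding genes. ADCY3, the adenylyl cyclase of olfactory cilia, had 2 regions in the gene, at 11.3 and 15.6 in control and at 12.6 and 12.5 after CXCL12, and these were the highest mean signals of the list. The highest bin of the second locus was 39 in control but 47 after CXCL12. GNAL, the olfactory G protein alpha subunit, had a region in the gene with 3.08 over 8000 bp in control and 4.96 over 800 bp after CXCL12, with a highest bin of 8 in both. ANO2, the calcium-activated chloride channel, had 2 control regions with 4.55 and 6.26 and a single CXCL12 region with 7.10. RTP1, which helps receptors reach the cell surface, had only a CXCL12 region, downstream, with 3.38. Of the 17 loci of the list 13 were shared, 2 were control only (REEP1 and ANO2) and 2 CXCL12 only (RTP1 and STOML3). The shared ones had a median log2 ratio of 0.16, with values from −0.32 to 0.69, the highest being that of GNAL, against a median of 0.04 over all shared loci. Of 18 regulators of receptor choice known from mouse, 4 had a region (22.2%, 6.41 to 47.6), namely EBF1, EBF4, SETDB1 and EHMT1. The last 2 are H3K9 methyltransferases, and the strongest region of EHMT1 had 13.1 in control and 13.96 after CXCL12.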

How the data were processed

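Reads were aligned to hg19 and regions called with tools named BWA 0.7.12 and SICER 1.1, per the submitters' processing notes, without settings or any word on scaling, depth or input correction. The authors deposited a region list per library, and per the file headers each region's signal is given as an average over bins and as a highest bin. Read depth is unknown, so signals carry no counting interval.

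Regions sharing at least 1 bp were chained into loci, and ratios are log2 of CXCL12 over control, with no pseudocount, at shared loci. With 1 library per group no test was run, and a 2-fold rule describes size. Exact (Clopper-Pearson) and order-statistic 95% intervals cover counting error only. Starts were derived for 83 of 85 genes, with the strand from the deposited distances for 61 and from RefSeq for 22. The promoter limits were inferred from the deposited promoter counts and matched 137 of 137 regions with 1 receptor gene. Chaining was checked on simulated data.

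By rule, values are given for the 8 highest signals per library, the 6 highest and lowest ratios, all control-only and the 8 strongest CXCL12-only loci. The rule also took the 5 longest regions and the strongest locus of each group of at least 3. Loci at or above the median signal with a highest bin in a receptor gene complete it (46 of 99 loci). Other named loci and starts were picked after their values were seen. The members and lists were chosen with earlier results of these data known. Python 3.11.15, pandas 2.3.3, numpy 2.4.6, scipy 1.17.1 and matplotlib 3.10.9 were used.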

Additional observations from a re-analysis of the deposited data

How the results depend on the processing

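The median log2 ratio at shared receptor loci stayed inside its interval under the highest bin (0.04), centring (−0.0069), a pseudocount of 1 (0.03) and the signal and length limits. It also did so without chromosome 1 (0.015), and was −0.071 at loci with a region whose highest bin lay in a receptor gene. The count of loci past the fold rule, 0 in each direction, became 1 higher and 1 lower at 1.5-fold and 3 higher and 1 lower by summed signal, and stayed 0 by the highest bin. With regions at or above the median signal alone, shared loci numbered 33, genes with a region 44, and covered length was 196.6 kb in control and 262 kb after CXCL12. Counting only regions whose highest bin lay in a receptor gene left 15 genes, 57.4 kb in control and 74.6 kb after CXCL12. This leaves out regions that reach into a receptor gene with their highest bin outside it, such as those at OR1L4. CXCL12-only loci numbered 13 when regions up to 5 kb apart were joined and 10 without chromosome 1, a setting chosen after seeing the data. Of 33 named shared loci, 22 kept their log2 ratio within 1 SD of all shared loci under the highest bin, and all 33 did under centring and the pseudocount. No paired analysis was possible because each group has 1 library. Unknown depth limits the weak loci most, since a region just under the calling threshold in a library is listed as missing there.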

Other observations

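Other chemosensory receptor families, which detect tastes, pheromones or formyl peptides, were looked up by symbol. All 3 vomeronasal receptors had a region in or beside the gene (100%, 29.2 to 100). VN1R2 and VN1R4 lie at the same shared locus, whose regions had a joint mean signal of 9.45 (control) and 9.62 (CXCL12). The regions of that locus covered 129600 bp in control and 131000 bp after CXCL12. Those of the VN1R1 loci covered 24000 and 16400 bp in control and 26800 and 17600 bp after CXCL12. Of 28 taste receptor genes 10 had a region (35.7%, 18.6 to 55.9, which includes the 30.0% of all protein-coding genes), with 11 of 12 loci shared and a median log2 ratio of 0.04. The sweet receptor subunit TAS1R2 had 3 control regions, with a joint mean of 6.94, where a single region with 7.43 was called after CXCL12. None of 6 trace amine receptors had a region (0%, 0 to 45.9). Among 3 formyl peptide receptors FPR3 alone had regions (33.3%, 0.84 to 90.6), at 2 shared loci both higher after CXCL12 by joint mean (log2 0.12 and 0.59). The region in the FPR3 gene was lower, with 5.40 in control and 5.01 after CXCL12, and its highest bin was 19 in both. Weaker downstream regions of the same locus had 2.99 in control and 3.52 after CXCL12. Of 10 T cell surface genes CD2 and CD8A had a region (20%, 2.52 to 55.6), and the region upstream of CD2 reached mean signals of 24.0 (control) and 24.5 (CXCL12), above that of any olfactory receptor locus. The intervals of all these lists include the 30.0% of all protein-coding genes.

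Genes other than receptors were rare in the receptor regions, with 15 of 176 regions listing another symbol and 23 listing 2 receptors. The named neighbours included CLEC5A beside OR9A4 and CYP4F11 beside OR10H4.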
